A study of Mus musculus with 12 samples.

Results

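The complement and coagulation factors described here are 37 genes whose proteins circulate in plasma, 20 of the complement system and 17 of coagulation and fibrinolysis. They were picked by gene symbol, and each of the 37 symbols was found once among the 54532 genes in every library's count table. Total RNA from mouse liver was sequenced in 12 libraries, 3 for each of 4 groups. All mice were males that carried floxed Pparg alleles on both chromosomes, were injected at 8 weeks of age with an AAV8 virus, and were then given a fast-food diet (FFD) with fructose-glucose drinking water. The PPARγ-KO groups received Cre recombinase and the control littermates, labelled wild-type (WT), received eGFP, both from the TBG promoter, which is active in hepatocytes, and the diet lasted 2 or 5 months. Cells other than hepatocytes were therefore not targeted although their RNA is in the sample, and no group was fed chow. PPARγ, the product of Pparg, is a nuclear receptor that drives fat storage.

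Complement is a cascade of proteases that coats microbes and dead cells for removal. It starts from antibody (the classical pathway), from sugars (the lectin pathway) or by itself (the alternative pathway), meets at C3 and ends in a pore made of the terminal components. Coagulation is a second protease cascade that ends in thrombin and fibrin, which plasmin later dissolves. Most of these proteins are made by hepatocytes. Factor D (Cfd, also called adipsin) is known as a product of adipocytes and properdin (Cfp) as a product of leukocytes, and the other 35 are called hepatocyte-made here.

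The libraries held 16367775 to 27452284 counts, and the 37 members took 2.10% to 2.96% of them. Pparg, the targeted gene, had 39.3 ± 1.91 normalized CPM (counts rescaled to a common library total with TMM factors) in WT against 56.3 ± 8.84 under the PPARγ-KO label at 2 months (SD, n = 3 each), and 38.4 ± 2.54 and 84.8 ± 9.06 at 5 months. Its transcript was thus higher under the KO label at both times (log2 fold change 0.52, SE 0.107, edgeR adjusted p = 0.0309, and 1.15, SE 0.0847, edgeR adjusted p = 2.57e-06). Counts per gene do not separate the deleted exons and the files hold no protein measure, so each direction below follows the labels of the libraries. WT replicate 1 at 2 months stood apart from the other replicates of its group in several members, and results that rest on it are given with and without it. No source used here says if the 2-month and 5-month libraries were made in one round, so time and batch cannot be told apart. The labels do not say whether replicates are separate animals either, and p-values measure the spread between these libraries, which may be technical.

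To show the genomic start of the genes on which the results turn, the 250 bases before the RefSeq transcription start (build GRCm38.p6, which is mm10) are given for the gene that lost all counts under the KO label (Cfd), for both genes called lower at 5 months that kept some (Cfp and Mbl1) and for the fibrinogen chain Fgb, which is hepatocyte-made. The sequences are 5′ to 3′ in the direction of the gene, and capitals mark a match to a searched motif.
Cfd, chr10:79890603-79890852, plus strand: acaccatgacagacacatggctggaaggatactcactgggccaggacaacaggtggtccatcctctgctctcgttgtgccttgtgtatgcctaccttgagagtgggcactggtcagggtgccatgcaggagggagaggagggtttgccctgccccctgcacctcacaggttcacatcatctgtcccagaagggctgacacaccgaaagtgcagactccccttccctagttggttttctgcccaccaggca
Cfp, chrX:20931556-20931805, minus strand: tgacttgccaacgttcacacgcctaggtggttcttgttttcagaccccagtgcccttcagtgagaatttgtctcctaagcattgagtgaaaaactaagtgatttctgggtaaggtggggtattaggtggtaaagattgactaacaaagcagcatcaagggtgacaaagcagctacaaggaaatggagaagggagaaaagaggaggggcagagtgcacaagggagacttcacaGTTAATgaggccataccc
Mbl1, chr14:41151206-41151455, plus strand: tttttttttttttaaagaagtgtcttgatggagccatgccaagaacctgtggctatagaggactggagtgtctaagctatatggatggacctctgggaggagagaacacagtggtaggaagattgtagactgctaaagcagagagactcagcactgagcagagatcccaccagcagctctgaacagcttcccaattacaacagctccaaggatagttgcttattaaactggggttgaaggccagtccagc
Fgb, chr3:83049864-83050113, minus strand: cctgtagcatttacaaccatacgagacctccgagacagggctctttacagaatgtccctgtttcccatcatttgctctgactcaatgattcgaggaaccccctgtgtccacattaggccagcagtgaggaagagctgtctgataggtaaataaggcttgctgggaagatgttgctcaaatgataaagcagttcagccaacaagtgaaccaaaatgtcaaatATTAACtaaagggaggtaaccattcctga
The motifs, read on both strands, were the direct repeat bound by PPAR and RXR (DR1), the HNF4 motif CAAAGTCCA, the palindromic HNF1 motif and its 6-letter part GTTAAT, the C/EBP motif TTGCGCAA and the TATA box TATAAA. The 6-letter part lies within the full HNF1 motif. RefSeq entries were at hand for 29 of the 37 members (30 entries, since C8g has 2). The 6-letter part stood in 10 of these 30 entries, those of C1ra, C4bp, C8a, C8b, Cfp, F13b, Fga, Fgb, Hc and Vtn, against 6.432% of all 32851 entries of that length. In Fgb the match began 29 bases and in Cfp 18 bases before the start. The letters of the TATA box were found in the entries of Hc, Klkb1 and Vtn, against 12.368% of all entries. These matches began 239 bases before the start in Hc, 132 in Klkb1 (reverse strand) and 135 and 137 in Vtn. None of the 30 entries held the DR1, HNF4, full HNF1 or C/EBP letters, which occurred in 0.033%, 0.384%, 0.009% and 0.164% of all entries. A match or its absence is a description of these letters in this window.

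Levels between genes are compared per length, as mean normalized CPM per kilobase of the gene length given in the files. In WT at 2 months C3, the component on which all complement pathways meet, was the highest at 766, followed by the fibrinogen chains Fga at 672 and Fgg at 670. Vitronectin (Vtn), which keeps the terminal pore off host membranes, had 612 and the third fibrinogen chain, Fgb, 461. Cfp, at 16.6, was the 33rd and Cfd, at 14.9, the 34th of the 37. When WT replicate 1 was left out, Cfd was at 4.65 and the 36th. With all 3 libraries, those below them were C8b, a chain of the pore, at 14.5, C2, a protease of the classical pathway, at 5.94 and factor B (Cfb), a protease of the alternative pathway, at 2.25. C2 and Cfb lie within a read-through gene, Gm20547, which had 0 counts in every library, and 41.5% and 73.0% of their 50-base stretches also occur in it or in other genes. Their levels are therefore uncertain. The same share was 50.8% for C1ra (mainly with C1rb), 52.5% for Masp2 (Tardbp, on the opposite strand), 42.7% for Klkb1 (Gm45753), 34.6% for C4b (C4a), 19.4% for Kng2 and 17.2% for Kng1 (with each other) and 10.2% for Plg (Slc22a3). In the other members it was at most 3.23% (Fgg).

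**Figure D1:**
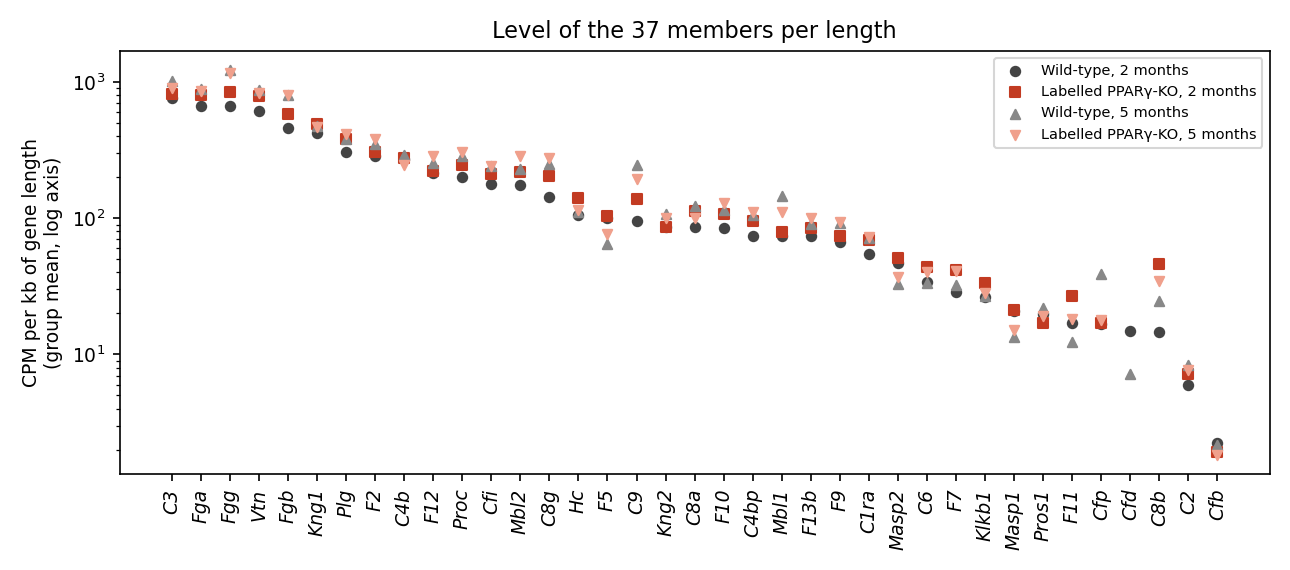
Group mean of each of the 37 members in normalized CPM per kilobase of gene length, on a log axis, ordered by the level in WT at 2 months. Circles and squares are 2 months and triangles 5 months. Levels run from 766 (C3) to 2.25 (Cfb) in WT at 2 months, and Cfd has no point for the groups labelled PPARγ-KO, where it had 0 counts.

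Cfd (ENSMUSG00000061780, chr10:79890853-79892655 of mm10, plus strand) encodes the protease that cuts factor B bound to C3b and so drives the alternative pathway. WT libraries held 599, 70 and 98 counts at 2 months, or 32.7, 3.60 and 4.97 normalized CPM. At 5 months they held 120, 115 and 118 counts, or 7.11, 6.70 and 6.16 CPM. All 6 libraries labelled PPARγ-KO held 0 counts, which allows up to 0.112 to 0.189 CPM in each (3 counts per library). At both times every WT library lay above every library labelled PPARγ-KO, and within WT replicate 1 at 2 months was several-fold above the other 5 libraries. Taking the group means against that floor, Cfd was at least 94.2-fold lower under the KO label at 2 months and at least 41.2-fold lower at 5 months. The bound at 2 months was 29.4-fold without WT replicate 1. The lowest WT library exceeded the highest floor 21.1-fold and 32.5-fold. Intervals and floors cover counting error alone, since reads without molecular identifiers are not independent molecules.

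By edgeR, Cfd was called lower at 5 months (adjusted p = 1.08e-06) but not at 2 months (edgeR adjusted p = 0.307). Same-numbered libraries of both genotypes deviated together at 2 months, and with the replicate number as a block Cfd was called there too (edgeR adjusted p = 3.66e-05). Since all KO libraries were at 0, the block could absorb the spread of the WT libraries, so the blocked call adds nothing to the zeros. DESeq2 called Cfd as well (adjusted p = 7.14e-06), and so did edgeR without WT replicate 1 (adjusted p = 8.90e-05). When all 12 libraries shared a single fit, Cfd passed the threshold at neither time (edgeR adjusted p = 0.0947 at 2 months and 0.111 at 5 months). Within WT, the log2 change of Cfd from 2 to 5 months was -1.04 (SE 1.01, edgeR adjusted p = 0.455), with overlapping groups. Without WT replicate 1 at 2 months the direction turned, to 0.63 (edgeR adjusted p = 0.0193). The KO libraries give no test over time, since all were at 0.

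Set against the hepatocyte-made members of the same library, Cfd had 1291, 187 and 241 CPM, counted here on the sum of those 35 genes alone, in WT at 2 months, with exact binomial 95% intervals of 1189 to 1398, 146 to 236 and 196 to 294. At 5 months the values were 248, 230 and 211, with intervals of 206 to 297, 190 to 276 and 175 to 253. Under the KO label, where 0 counts are bounded by 3 counts per library, up to 6.80 is allowed on the same scale at 2 months and 6.51 at 5 months. The exact binomial 95% intervals of these libraries reach up to 8.36 and 8.00. Group means were taken against the bound of 3 counts per library. On this scale Cfd was then at least 99.5-fold lower at 2 months and at least 40.3-fold lower at 5 months. Without WT replicate 1 the value at 2 months was 37.2-fold. The lowest WT library exceeded the highest bound 27.5-fold at 2 months and 32.5-fold at 5 months. The 35 hepatocyte-made genes had median log2 fold changes of 0.31 and 0.06. These come from edgeR on whole libraries with TMM scaling, not from this scale.

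Of 6 adipocyte markers, Lep had 0 counts in every library, and Adipoq, Plin1, Retn and Slc7a10 had at most 3 in any. The sixth, Adrb3, had 25 to 149 counts and was the one that could be tested. It was called higher under the KO label at 2 months (log2 fold change 1.26, edgeR adjusted p = 0.0298), not at 5 months (-0.84, edgeR adjusted p = 0.0841), and fell by 1.52 over time under the KO label (edgeR adjusted p = 0.000909). The summed level of the 6 ran from 1.60 to 3.05 CPM in WT and from 5.02 to 6.88 under the KO label at 2 months, and from 2.78 to 4.95 and from 1.28 to 2.93 at 5 months. In the WT libraries, where Cfd had 70 to 599 counts, Adrb3 had 30 to 84 and the other adipocyte markers had at most 3. The cells from which the Cfd counts came were not tested. Across the 12 libraries and 15126 genes, those most like Cfd in log2 CPM were Cidea, a lipid droplet protein (Pearson r = 0.961), Adgrg2, an adhesion receptor (0.960), Clstn3 (0.946), Casc4 (0.944) and Vnn1, a pantetheinase (0.932). These libraries share genotype labels, and all of those labelled PPARγ-KO sit at 0 for Cfd. Cidea, for example, had 21.8, 13.5 and 17.8 CPM in WT at 2 months and 0.0517, 0.114 and 0 under the KO label.

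**Figure D2:**
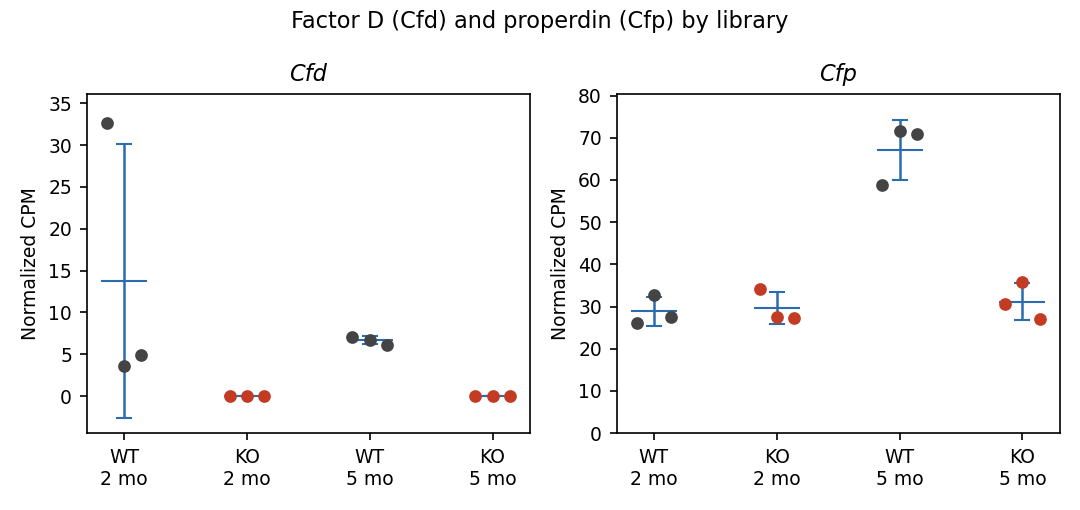
Normalized CPM of Cfd (left) and Cfp (right) in each of the 12 libraries, grouped by genotype label (WT, KO) and months of FFD. Points are libraries, and blue marks give the mean and SD of 3. Cfd is at 0 in all 6 KO libraries with 1 WT library at 32.7, and Cfp is highest in WT at 5 months, at 58.9 to 71.6.

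Properdin (Cfp, ENSMUSG00000001128, chrX:20925454-20931555, minus strand) stabilizes the enzyme that factor D activates. At 2 months it had 26.1, 32.8 and 27.6 CPM in WT and 34.1, 27.6 and 27.4 under the KO label, and the groups overlapped (log2 fold change 0.04, SE 0.118, edgeR adjusted p = 0.895). At 5 months WT libraries had 58.9, 71.6 and 70.8 CPM and those labelled PPARγ-KO 30.7, 35.8 and 27.0. The groups were far apart there, and Cfp fell by 1.09 on the log2 scale under the KO label (SE 0.109, edgeR adjusted p = 7.85e-05), a call kept in all 13 alternatives tried. In WT it rose by 1.22 from 2 to 5 months (SE 0.107, edgeR adjusted p = 1.48e-05), and in the libraries labelled PPARγ-KO the change was 0.07 (SE 0.118, edgeR adjusted p = 0.65). The KO effect at 5 months minus that at 2 months was -1.14 (SE 0.174, edgeR adjusted p = 0.00675).

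Macrophage markers moved with Cfp between genotypes at 5 months and in WT over time. The summed level of 7 such markers was 262 to 320 CPM in WT and 310 to 355 under the KO label at 2 months, and 543 to 605 and 267 to 372 at 5 months. Of the 7, 6 were called lower under the KO label at 5 months, among them, picked for the lowest adjusted p, Clec4f (log2 fold change -0.79, edgeR adjusted p = 0.00014) and Csf1r (-0.82, 2.49e-05), 6 were called higher in WT over time, and 4 differed between the times. At 2 months 1 of the 7 was called higher under the KO label. Over time under that label, where Cfp hardly changed, 1 was called higher and 2 lower. None of the 7 was at 0 throughout, and their part in the result for Cfp was not tested. In bulk liver RNA, fewer cells of a type and less RNA per cell cannot be told apart.

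The comparison of genotypes asks how the factors differ when PPARγ is targeted in hepatocytes. At 2 months 4 of the 37 members were called higher under the KO label and 0 lower, where 3.56% of the 14573 genes tested were called (1.78% in each direction). At an unadjusted p below 0.05 and a change of at least 1.3-fold, 6 members passed, all higher, against 11% of all genes. All 4 were complement genes: C8g and C9 of the terminal pore, the mannose-binding lectin Mbl2 and C4bp, which holds the classical pathway in check. Of the 35 hepatocyte-made members, 33 had a positive log2 fold change, and their median was 0.31 where that of all genes was -0.00483. It ran from 0.20 (without WT replicate 2) to 0.38 (without WT replicate 1) when a library was left out. With library size alone as the scaling, 28 of 35 were positive, with a median of 0.24 against -0.08 for all genes. The 3 libraries labelled PPARγ-KO lay above all 3 WT libraries in 15 of the 35 (12.1% of all genes did so) and below them in 2 (12% of all genes). Hepatocyte markers moved too, and 2 of 7 were called higher. Of these 7, 6 had a positive log2 fold change, with a median of 0.36 beside 0.31 in the hepatocyte-made members. Their sum, in which albumin (Alb) outweighs the rest, was 57196 to 68475 CPM in WT and 74516 to 86732 under the KO label. The part of the markers in the members' values was not tested.

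C8g (ENSMUSG00000015083, chr2:25498651-25501719), a chain of the pore component C8, had 243, 190 and 205 CPM in WT and 303, 315 and 304 under the KO label. The groups did not overlap, and C8g rose by 0.53 (SE 0.0951, edgeR adjusted p = 0.0193). It overlaps Fbxw5 on the other strand by 970 bases, and reads there cannot be assigned if counting ignored strand. C9 (ENSMUSG00000022149, chr15:6445327-6498751), the subunit that forms the ring of the pore, had 241, 213 and 284 CPM in WT against 363, 358 and 337. Again no libraries overlapped, and C9 rose by 0.52 (SE 0.104, edgeR adjusted p = 0.0272). Mbl2 (ENSMUSG00000024863, chr19:30232928-30239685), which binds microbial sugars, had 194, 192 and 191 CPM in WT and 252, 234 and 239 under the KO label, with a rise of 0.33 (SE 0.068, edgeR adjusted p = 0.0303). C4bp (ENSMUSG00000026405, chr1:130634773-130661632) had 517, 481 and 511 CPM in WT and 635, 676 and 621 under the KO label. It rose by 0.36 (SE 0.0797, edgeR adjusted p = 0.0401), and with the replicate block it passed the threshold no longer (edgeR adjusted p = 0.0695). With library size alone neither C4bp nor Mbl2 was called (edgeR adjusted p = 0.0704 and 0.0741), and Mbl2 was not called with all 12 libraries together (edgeR adjusted p = 0.0559).

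These calls were close to the threshold and depended on the libraries used. Without WT replicate 1 at 2 months 20 members were called, 19 higher and Cfd lower (10.6% of all genes, 5.31% higher). Without WT replicate 2, or without any one of the 3 replicates labelled PPARγ-KO, 0 members were called by edgeR (0.788% to 1.59% of all genes), and without WT replicate 3 only C9 was (1.01%). With all 6 libraries and an unadjusted edgeR p under 0.05, 17 members passed, against 18.9% of all genes. The edgeR adjusted p without one of those 5 libraries ran from 0.0602 to 0.0828 for C8g and from 0.0734 to 0.146 for Mbl2. With the replicate block 9 members were called (5.61% of all genes, 2.96% higher): C1ra (edgeR adjusted p = 0.044), C6 (0.0273), C8a (0.0247), C8g, C9, F11 (0.0314), Hc (0.0416) and Mbl2 higher, and Cfd lower. DESeq2 called 10, 9 higher and 1 lower, against 6.78% of all genes.

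The other terminal components were also positive at 2 months without a call. Hc, which is the mouse C5, stood at 0.41 (SE 0.101, edgeR adjusted p = 0.0577), C8a 0.41 (edgeR adjusted p = 0.16) and C6 0.37 (edgeR adjusted p = 0.6). C8b (ENSMUSG00000029656, chr4:104766317-104804548), shown after its values were seen, had the largest positive value of the 37, 1.67, with an SE of 0.636 (edgeR adjusted p = 0.275). It had 67.1, 13.9 and 29.6 CPM in WT and 119, 91.8 and 140 under the KO label. All libraries of the second group were the higher ones, but the WT libraries spread almost 5-fold, a range wider than in any other hepatocyte-made member. Of the regulators, factor I (Cfi), which inactivates C3b, had 0.24 and Vtn 0.36, both without overlap and without a call (edgeR adjusted p = 0.144 and 0.103).

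Among the starting components C1ra, a protease of the C1 complex, had 0.34 (edgeR adjusted p = 0.0939) and C2 0.28, both without overlap, and the lectin Mbl1, the lectin proteases Masp1 and Masp2 and C4b lay between 0.02 and 0.13, with overlapping groups. C3 had 0.08 and Cfb, whose KO libraries lay below WT, -0.22, neither called. None of the 17 coagulation members was called at 2 months. The contact factor F11 had 0.67 (SE 0.229, edgeR adjusted p = 0.2) and factor VII (F7), which starts coagulation with tissue factor, 0.54 (SE 0.19, edgeR adjusted p = 0.197). Factor X (F10), which makes thrombin from prothrombin, had 0.35 and the anticoagulant protein C (Proc) 0.31, again with no overlap. Protein S (Pros1), the cofactor of protein C, was the one vitamin K-dependent member with a negative value, -0.23 (SE 0.0656, edgeR adjusted p = 0.0929), and its 3 KO libraries lay below all WT libraries. Pros1 was called lower on scaling by library size alone (adjusted p of edgeR 0.0338) and with all 12 libraries together (edgeR adjusted p = 0.0308). Prothrombin (F2), F9, F12 and F5 lay between 0.06 and 0.16, and the kinin precursors Kng1 and Kng2, which share sequence, at 0.20 and 0.01. Prekallikrein (Klkb1) had 0.34, the fibrin-linking subunit F13b 0.21 and plasminogen (Plg), the precursor of plasmin, 0.31. The fibrinogen chains Fga, Fgb and Fgg had 0.26, 0.33 and 0.34 (edgeR adjusted p = 0.496, 0.325 and 0.294). Their groups overlapped. Fgb had 2280, 1442 and 1545 CPM in WT and 2191, 2113 and 2313 under the KO label. Of these, replicate 1 of WT lay within the range of the KO libraries and the others lay far below it.

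**Figure D3:**
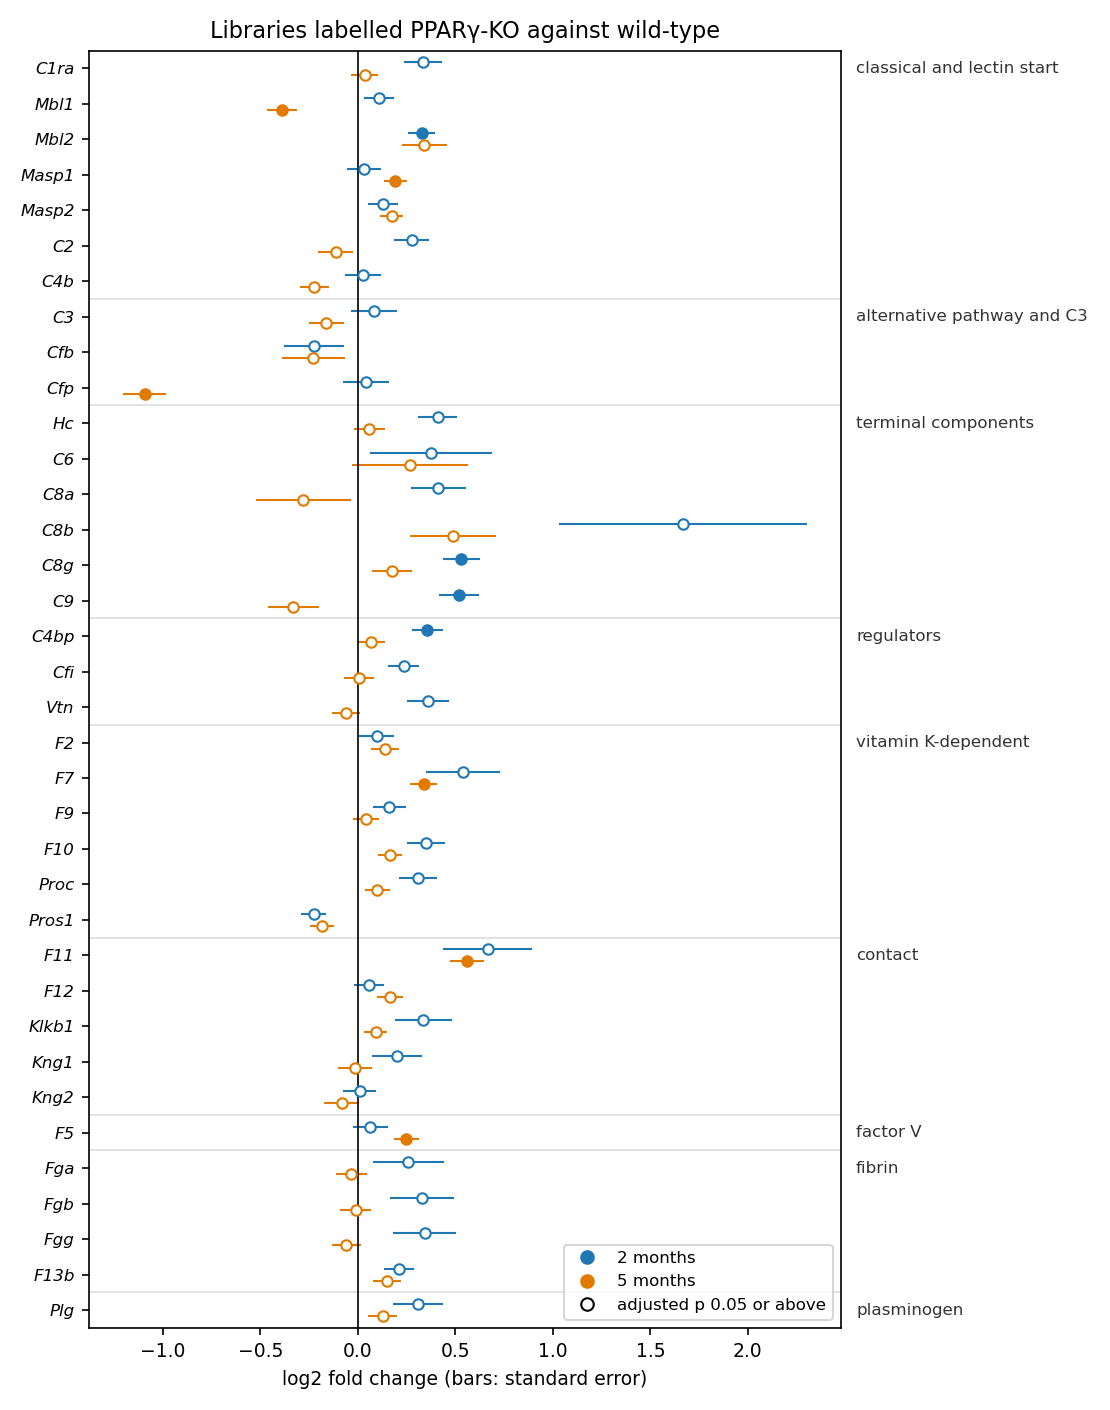
Log2 fold change of libraries labelled PPARγ-KO against WT at 2 months (blue) and 5 months (orange) for 36 members by role. Bars are standard errors derived from the edgeR F statistic. Filled points have an edgeR adjusted p below 0.05. Cfd is left out because its KO libraries are at 0. Most blue points lie right of 0, with a median of 0.31 in the 35 hepatocyte-made members, and Cfp and Mbl1 are the filled points left of 0, at -1.09 and -0.39 at 5 months.

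At 5 months 7 members were called, 4 higher and 3 lower under the KO label, where 18.4% of the 14138 genes tested were called (8.9% higher and 9.51% lower). The higher ones were 3 genes of coagulation (F11, F7 and F5) and Masp1, and the lower ones Cfd, Cfp and Mbl1. The share of members called was thus near that of all genes. At an unadjusted p below 0.05 and 1.3-fold, 4 members passed (Cfd, Cfp, F11 and Mbl1), against 17% of all genes. The median of the 35 hepatocyte-made members was 0.06, with 21 of 35 positive, from 0.01 (without KO replicate 1) to 0.09 (without KO replicate 2) when a library was left out, and with library size alone it was -0.01, with 17 of 35. The KO libraries lay above WT in 11 of the 35 (15.8% of all genes) and below in 5 (19% of all genes). The hepatocyte markers summed to 57786 to 62430 CPM in WT and 76745 to 88223 under the KO label, with Alb, which rose by 0.64 (edgeR adjusted p = 0.00121), as the main part. Of the 7 markers, 5 had a positive log2 fold change and 2 were called higher, with a median of 0.22 beside 0.06 in the members. Their part in the members' values was not tested.

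F11 (ENSMUSG00000031645, chr8:45241174-45262031), a protease of the contact pathway that activates factor IX, had 26.5, 26.9 and 30.2 CPM in WT and 43.3, 36.1 and 43.0 under the KO label. There was no overlap, and F11 rose by 0.56 (SE 0.0864, edgeR adjusted p = 0.000652). F7 (ENSMUSG00000031443, chr8:13026034-13035809) had 63.6, 60.7 and 56.6 CPM in WT and 75.3, 70.6 and 81.0 under the KO label and rose by 0.34 (SE 0.0713, edgeR adjusted p = 0.00536). Both kept their call in 12 of 13 alternatives, losing it when all 12 libraries were fitted jointly (adjusted p of edgeR 0.0916 and 0.199). Factor V (F5, ENSMUSG00000026579, chr1:164151838-164220277), the cofactor of factor X, had 476, 486 and 478 CPM in WT and 557, 582 and 559 under the KO label. It rose by 0.25 (SE 0.0642, edgeR adjusted p = 0.017). The call was lost without WT replicate 2 or 3 or KO replicate 2 (edgeR adjusted p = 0.0672, 0.0739 and 0.0571), while the log2 fold change stayed between 0.23 and 0.26 whichever library was left out.

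Masp1 (ENSMUSG00000022887, chr16:23449417-23520815), a protease of the lectin pathway, had 134, 131 and 130 CPM in WT and 154, 151 and 143 under the KO label. It rose by 0.19 (SE 0.0596, edgeR adjusted p = 0.0408), a call kept in 3 of 13 alternatives. The call was lost without any one library other than WT replicate 1, at edgeR adjusted p values of 0.0538 to 0.151, while the log2 fold change stayed between 0.17 and 0.22. Other losses came with scaling by library size alone (adjusted p of edgeR 0.123), DESeq2 (0.0541), no filter (0.0779), the replicate block (0.0849) and all 12 libraries together (0.115). Mbl1 (ENSMUSG00000037780, chr14:41151458-41159601), the second mannose-binding lectin, went the other way. It had 259, 216 and 217 CPM in WT and 178, 171 and 174 under the KO label, and fell by 0.39 (SE 0.075, edgeR adjusted p = 0.003), a call kept in all 13 alternatives. Mbl2, its close relative, had 295, 232 and 227 CPM in WT and 310, 280 and 358 under the KO label, overlapping, a log2 difference of 0.34 (SE 0.116, edgeR adjusted p = 0.073).

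The members called at 2 months other than Mbl2 were near 0 or negative at 5 months. C8g had 448, 334 and 336 CPM in WT and 422, 408 and 423 under the KO label (log2 fold change 0.17, edgeR adjusted p = 0.28). C9 had 708, 586 and 580 CPM in WT and 529, 395 and 555 under the KO label. All KO libraries were now below WT, by a log2 difference of -0.33 (SE 0.131, edgeR adjusted p = 0.119). With the replicate block the edgeR adjusted p of C9 was 0.0355, although same-numbered libraries did not deviate together at 5 months. C4bp was at 0.07 (edgeR adjusted p = 0.567). C8b was 0.49 (SE 0.221, edgeR adjusted p = 0.219), with 63.4, 64.6 and 60.9 CPM in WT and 117, 66.6 and 78.7 under the KO label, again without overlap. The remaining members were not called. C4b (-0.22), Pros1 (-0.18) and Vtn (-0.06) lay below WT without overlap, and Masp2 (0.18), F2 (0.14), F10 (0.17), Proc (0.10), F12 (0.17) and Klkb1 (0.09) above it. C1ra, C2, C3, Cfb, Hc, C6, C8a, Cfi, F9, Kng1, Kng2, Fga, Fgb, Fgg, F13b and Plg overlapped, with log2 fold changes from -0.28 (C8a) to 0.27 (C6). Without WT replicate 1 at 5 months, 16 members were called, 10 higher and 6 lower, against 21% of all genes.

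The comparison over time asks how the factors changed between 2 and 5 months of FFD in each genotype. WT at 2 months also serves as the control of the comparison between genotypes, so these results are not independent of those above. In WT 21 members rose and 3 fell of 37, where 46.4% of the 14491 genes tested were called (23.8% higher and 22.7% lower). Under the KO label 16 rose and 6 fell of the 36 that could be tested, where 44.9% of 14478 genes were called (22.7% higher and 22.2% lower). The median log2 change of the 35 hepatocyte-made members was 0.38 in WT and 0.11 under the KO label, beside -0.0128 and -0.0111 over all genes. The 5-month libraries did not overlap the 2-month ones in 25 of the 37 members in WT (56.7% of all genes) and in 24 under the KO label (55.6%). At an unadjusted p below 0.05 and 1.3-fold, 20 members passed in WT and 10 under the KO label, against 41.1% and 36% of all genes. Of 7 hepatocyte markers, 4 were called higher over time in WT (median log2 change 0.46) and 3 under the KO label (0.17). Their sum, mostly Alb, ran from 57196 to 68475 CPM in WT at 2 months and from 57786 to 62430 at 5 months. Under the KO label it ran from 74516 to 86732 and from 76745 to 88223. Alb itself was lower in WT at 5 months, with 33839 to 38586 CPM against 41664 to 48870 at 2 months. The groups did not overlap, as in the 28% of all genes that lay below, but edgeR called none of the 7 markers lower. The part of the markers in the members' changes was not tested.

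Among the members called in WT the 6 largest changes were all rises. C9 rose by 1.34 (SE 0.12, edgeR adjusted p = 1.48e-05), from 213 to 284 CPM over the libraries at 2 months to 580 to 708 at 5 months. Cfp followed, then Mbl1, which rose by 0.99 (SE 0.0921, edgeR adjusted p = 1.73e-05) from 123, 109 and 116 CPM to the values given for 5 months. The fibrinogen chain Fgg (ENSMUSG00000033860, chr3:83007724-83015049) rose by 0.87 (SE 0.16, edgeR adjusted p = 0.00161), from 1807, 1148 and 1252 CPM to 2459, 2660 and 2589. Fgb (ENSMUSG00000033831, chr3:83040141-83049863) rose by 0.81 (SE 0.166, edgeR adjusted p = 0.00315), to 2875, 3235 and 3159 CPM, and C8g by 0.81 (SE 0.133, edgeR adjusted p = 0.00087). Fga had 0.40 and was not called (edgeR adjusted p = 0.104). No library of one time overlapped the other in C9, Cfp, Mbl1, Fgg, Fgb or C8g, and each of the 6 calls was kept in all 13 alternatives.

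The other members called higher in WT were C1ra, Mbl2, C2, C3, C8a, C4bp, Cfi, Vtn, F2, F9, F10, Proc, F12, Kng2 and F13b, with rises of 0.25 (F12) to 0.52 (C8a, Vtn and Proc). Those that fell were the lectin proteases Masp1 (-0.64) and Masp2 (-0.50) and F5 (-0.63). C4b, Cfb, Cfd, Hc, C6, C8b, F7, Pros1, F11, Klkb1, Kng1, Fga and Plg were not called. Without WT replicate 1 at 2 months 31 members were called, 28 higher and 3 lower, against 47% of all genes.

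Under the KO label the largest change was a fall of F11 by 0.56 (SE 0.0935, edgeR adjusted p = 0.000613), from 63.5, 53.2 and 63.8 CPM to 43.3, 36.1 and 43.0. Masp1 fell by 0.49 (SE 0.0596, edgeR adjusted p = 7.37e-05), from 221, 200 and 208 CPM to 154, 151 and 143, and Masp2 (ENSMUSG00000028979, chr4:148602554-148615499) by 0.47 (SE 0.0607, edgeR adjusted p = 0.000115), from 169, 160 and 180 to 123, 127 and 119. C9 rose by 0.48 (SE 0.12, edgeR adjusted p = 0.013), Mbl1 by 0.48 (SE 0.0599, edgeR adjusted p = 8.90e-05) and Fgb by 0.46 (SE 0.0645, edgeR adjusted p = 0.000184). In each of these 6 the times did not overlap, and their calls were kept in all 13 alternatives. F5, Hc and Klkb1 also fell, by 0.46, 0.28 and 0.23. The other rises were those of Mbl2, C8g, C4bp, Cfi, F2, F9, F10, Proc, Pros1, F12, Kng2, Fgg and F13b, between 0.17 (Pros1) and 0.46 (Fgg). C1ra, C2, C4b, C3, Cfb, Cfp, C6, C8a, C8b, Vtn, F7, Kng1, Fga and Plg were not called.

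**Figure D4:**
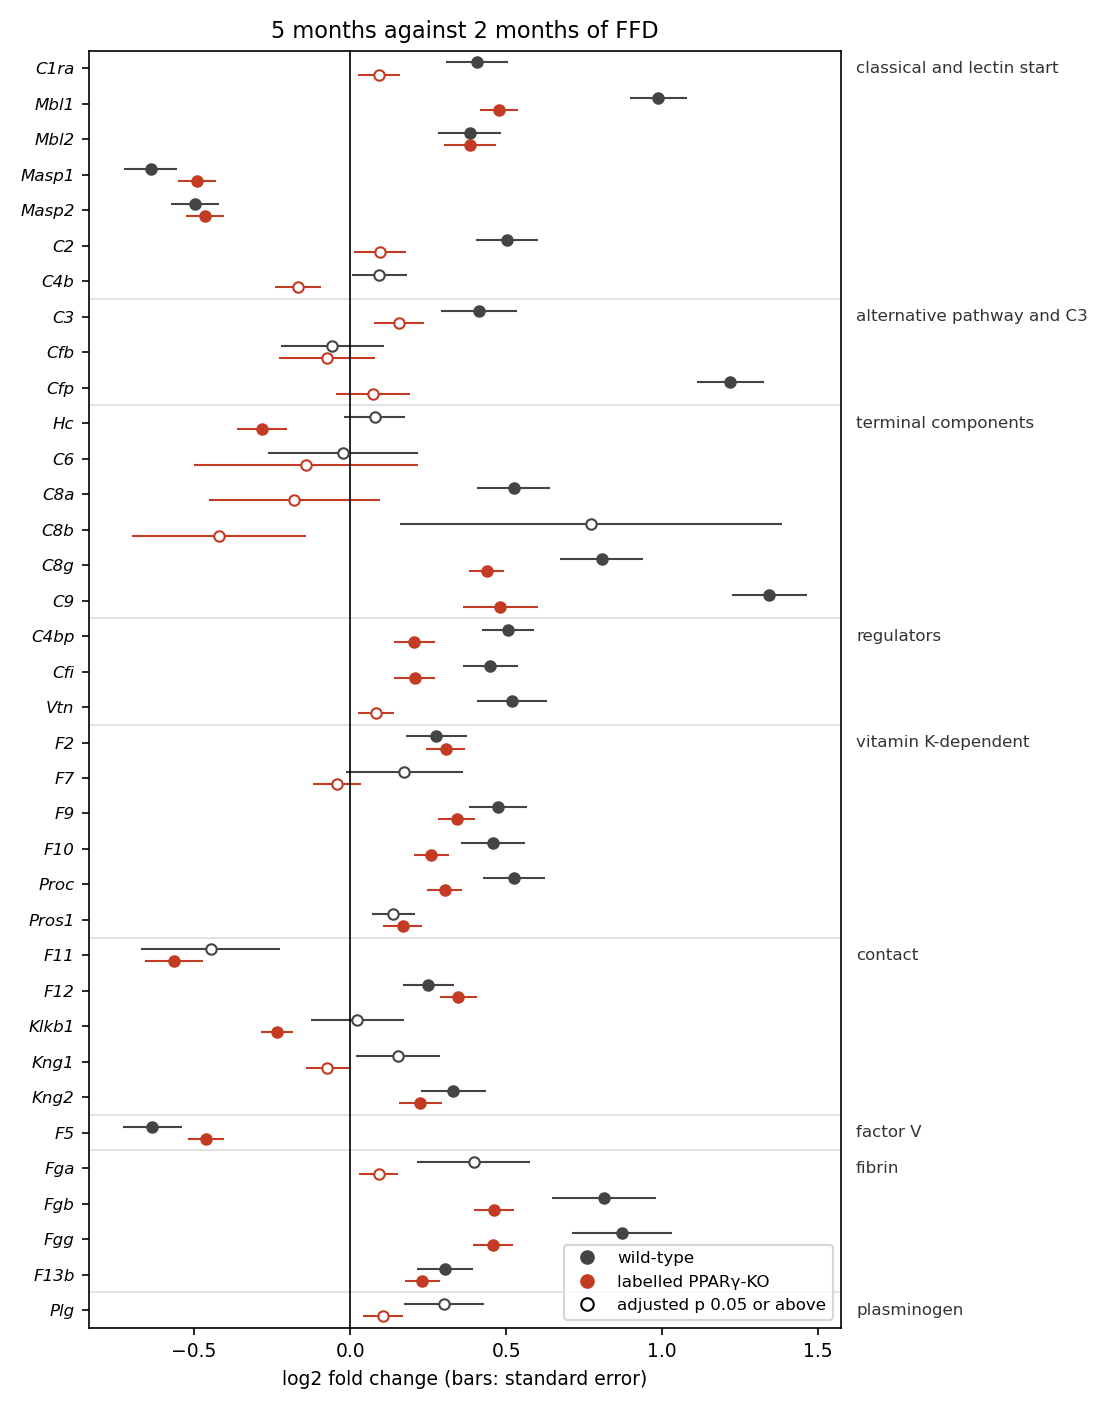
Log2 change from 2 to 5 months of FFD in WT (grey) and in libraries labelled PPARγ-KO (red) for 36 members by role. Bars are standard errors derived from the edgeR F statistic. Filled points have an edgeR adjusted p below 0.05, and Cfd is left out. C9 and Cfp are furthest right in WT, at 1.34 and 1.22, and Masp1, Masp2 and F5 lie left of 0 in both genotypes.

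The difference between the times in the KO effect was tested in a fit of all 12 libraries. It was called for 3 of the 37 members, all more negative at 5 months, where 1.57% of 15127 genes were called (0.661% higher and 0.912% lower). At an unadjusted p below 0.05 and 1.3-fold, 7 members passed, against 10.3% of all genes. The called ones were Cfp, C9 with -0.86 (SE 0.182, edgeR adjusted p = 0.0338) and Mbl1 with -0.51 (SE 0.111, edgeR adjusted p = 0.0323). Of the 35 hepatocyte-made members, 28 had a higher KO effect at 2 than at 5 months, with a median difference of -0.22 beside -0.00445 for all genes, and 27 with library size alone. The median was -0.35 without WT replicate 1 and -0.16 without WT replicate 2 at 2 months, the extremes when a library was left out. All 6 terminal components and all 4 fibrin genes were among the 28, and the opposite sign was found in Mbl2, Masp1, Masp2, F2, Pros1, F12 and F5, at 0.00 to 0.17. Of the 7 hepatocyte markers, 5 also had a higher KO effect at 2 months, with a median difference of -0.13. Their part in the members' values was not tested. Cfp kept its call in all 18 alternatives. C9 lost it without any one of WT replicates 1 or 2 or KO replicates 1, 2 or 3 at 2 months or WT replicates 1, 2 or 3 at 5 months, at edgeR adjusted p values of 0.0519 to 0.0743. Mbl1 lost it without any one library other than WT replicate 1 or KO replicate 3 at 2 months or WT replicate 1 at 5 months (0.0509 to 0.085). The count of 3 went to 9 without WT replicate 1 at 2 months and to 1, Cfp, without WT replicate 2 or KO replicate 1 or 2 at 2 months or WT replicate 2 or 3 at 5 months.

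**Figure D5:**
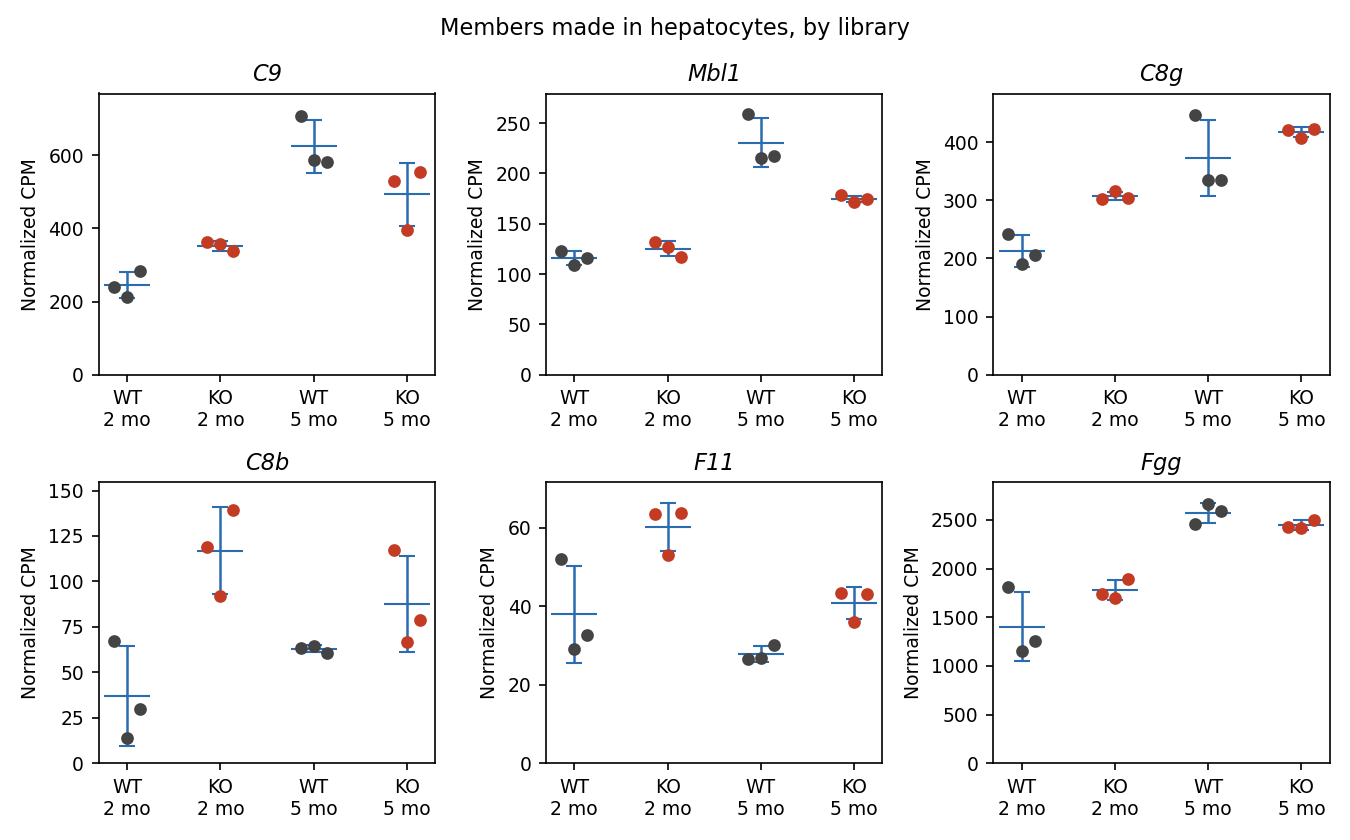
Normalized CPM of 6 hepatocyte-made members in each library, grouped by genotype label and months of FFD, on axes that start at 0. Points are libraries, and blue marks give the mean and SD of 3. C9 is higher under the KO label at 2 months (337 to 363 against 213 to 284) and lower at 5 months (395 to 555 against 580 to 708), and 1 WT library at 2 months stands above its group in C8b, F11 and Fgg.

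Other genes of both cascades that are not among the 37 were counted in the same way. Of 31 further complement genes, 30 were in the tables under their symbol. Between genotypes 3.56% of all genes were called at 2 months (1.78% in each direction) and 18.4% at 5 months (8.9% higher and 9.51% lower). Over time the share was 46.4% in WT (23.8% higher and 22.7% lower) and 44.9% under the KO label (22.7% higher and 22.2% lower). For the difference between the times it was 1.57%. At 2 months 3 of the 28 tested rose and 1 fell: the complement receptor subunit Itgax fell by 1.21 (edgeR adjusted p = 0.018), and Cpn2, a subunit of the carboxypeptidase that inactivates anaphylatoxins, the ficolin Fcna and C1rl rose by 0.48, 0.48 and 0.35. At 5 months 3 of 29 rose and 14 fell, the largest log2 fold changes being those of Itgam (-1.86) and Itgb2 (-0.95), both complement receptor subunits, the macrophage receptor Vsig4 (-0.93) and C1qb (-0.89), a chain of C1q. In WT over time 16 of 28 rose and 1 fell, led by the C1q chains C1qa (1.82), C1qc (1.82) and C1qb (1.76) and by Itgb2 (1.27). Under the KO label 10 of 29 rose and 6 fell, and the 4 largest were C4a, which fell by 1.59, and the rises of C5ar1 (1.11), C1qa (0.96) and C1qc (0.95). The KO effect differed between the times for 5 of 29, all more negative at 5 months. C1q and Vsig4 are known from macrophages. Vsig4 is also 1 of the 7 macrophage markers given beside Cfp.

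Of 24 further coagulation and fibrinolysis genes, 2 rose at 2 months and 0 fell by edgeR, where 3.56% of all genes were called. An unadjusted p under 0.05 was found for 10, against 18.9% of all genes. The 2 that rose were Hgfac (0.45, edgeR adjusted p = 0.0196) and Ggcx (0.32, edgeR adjusted p = 0.0381), the carboxylase on which the vitamin K-dependent factors rely. At 5 months 3 rose and 5 fell, where 18.4% of all genes were called. Among them were F13a1 (log2 fold change -2.13), the catalytic subunit of factor XIII, Plau (-1.13), a plasminogen activator, and Procr (-0.99), the protein C receptor. F13a1 was low there, with 6 to 13 counts under the KO label and 20 to 55 in WT. In WT 8 rose and 6 fell over time, where 46.4% of all genes were called. Among them were F13a1, which rose (edgeR adjusted p = 0.0254), and tissue factor F3 (-1.27), Vwf (-1.09) and F8 (-0.91), which fell. Under the KO label 6 of 23 rose and 4 fell, where 44.9% of all genes were called, so the share was near that of all genes. The largest were Procr (1.06), F8 (-1.01), Plat (0.93) and Plaur (0.92). None of these 24 differed between the times in the KO effect by edgeR, where 1.57% of all genes did. At an unadjusted p under 0.05 there were 7, against 14.9% of all genes.

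Markers of further cell types were summed as well. Neutrophil markers summed to 0.880 to 7.31 CPM and platelet markers to 3.76 to 8.98 over all libraries. The sum of 5 stellate cell markers was lower under the KO label at both times, at 303 to 330 CPM against 388 to 410 and at 362 to 404 against 417 to 473. At each time 1 of the 5 was called lower, with median log2 fold changes of -0.34 at 2 months and -0.07 at 5 months. At 5 months Dcn outweighed the other markers, at a mean of 233 CPM under the KO label against 296 in WT. The endothelial sum was 170 to 185 CPM under the KO label and 194 to 210 in WT at 5 months, and overlapped at 2 months. Cholangiocyte markers summed to 7.35 to 15.6 CPM. The 3 erythroid markers summed to 225 to 340 CPM in WT and 235 to 328 under the KO label at 2 months, and to 306 to 345 and 315 to 594 at 5 months. Of these, Alas2 was called higher under the KO label at both times (log2 fold change 0.71 and 0.52, edgeR adjusted p = 0.00763 and 0.00104), and Hbb-bs rose by 1.46 over time under the KO label (edgeR adjusted p = 0.0459). Their part in the results was not tested.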

How the data were processed

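Read counts per gene were deposited for 12 libraries of total liver RNA. The authors aligned the reads with STAR per the methods of the study, whereas the submitters' processing notes name HISAT2 and the build mm10. The program that counted reads, its annotation and its use of strand are not given in the sources used here. Counts were used as deposited, and groups came from the labels.

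Libraries were scaled by TMM and tested with the quasi-likelihood F test of edgeR 4.0.16 (robust, R 4.3.3, limma 3.58.1) after filterByExpr, for each comparison on the 6 libraries it concerns and, for the difference between times, on all 12. Adjustment was by Benjamini-Hochberg across the whole table, and a gene is called at an adjusted p below 0.05. Each SE of a log2 fold change was derived as its absolute value divided by the square root of the F statistic. Alternatives were DESeq2 1.42.0, DESeq2 size factors in edgeR, library size alone, a minimum of 10 counts in each library, no filter, a replicate block, one fit of all 12 libraries, leaving out each library, and an unadjusted p below 0.05 with a 1.3-fold change. The main edgeR fit and the DESeq2 fit were checked on simulated data. A count of 0 was bounded by 3 counts per library. At 2 months same-numbered libraries of both genotypes deviated together (r = 0.220, 0.324 and 0.140 over 5000 genes), so blocked values are given there. Between genotypes at 5 months all such pairs were negative (r = -0.0779, -0.0603 and -0.179), and over time not every pair exceeded 0.1.

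All 37 members are accounted for by role. Values in every library are given for Cfd, for members called between genotypes or in the difference, and for the 6 called members with the largest change over time. Up to 4 called genes were named per further list and comparison, by size of change, and the 5 genes most like Cfd. The members and lists were chosen with earlier results of these data known. The symbols Tf and Cfhr4 were not matched and are not used here. A gene of the further coagulation list is not reported here by name.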

Additional observations from a re-analysis of the deposited data

Results flagged for a closer look

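The effect of the KO label at 5 months minus that at 2 months was tested directly for members and for the further complement and coagulation genes, and it differed by edgeR for these genes on the log2 scale. Among the members it was -0.86 for C9 (edgeR adjusted p = 0.0338), -1.14 for Cfp (0.00675) and -0.51 for Mbl1 (0.0323). Of 29 further complement genes tested 5 differed, and for the 4 with the largest difference it was -1.19 for Vsig4 (edgeR adjusted p = 0.00456), -0.89 for Fcna (0.00805), -0.86 for C1qc (0.016) and -0.86 for C1qa (0.0112). All are more negative at 5 months, and all rest on 3 libraries a group.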

How the results depend on the processing

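The counts of called members changed most at 2 months, from 4 to 10 with DESeq2, 15 without a filter on low counts, 9 with all 12 libraries in one fit and 0 to 20 when each library was left out. The share of all genes called moved too, from 3.56% to 6.78%, 5.95%, 7.62% and 0.788% to 10.6%. At 5 months the count of 7 (18.4% of all genes) became 4 at an unadjusted p below 0.05 and 1.3-fold (17%). It became 5 to 16 with a library left out (11% to 21% of all genes). Over time under the KO label, 22 (44.9% of all genes) became 10 at that threshold (36%). The count of 3 for the difference between times (1.57% of all genes) became 5 with DESeq2 (3.74%) and 7 without a filter (2.76%). It became 7 at that threshold (10.3%) and 1 to 9 with a library left out (0.536% to 3.65%). Against counts of Alb, the bound for Cfd at 5 months was 63.1-fold, and against the members it ran from 38.0 to 43.3 with a library left out and from 37.2 to 133 at 2 months. Without WT replicate 1 at 2 months, the log2 change of Cfd over time in WT turned to 0.63 and its difference between times to -0.63. With a library left out these ran from -1.501 to 0.63 and from -0.63 to 1.495. The cause of these changes was not tested.

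With the replicate block 9 members were called at 2 months in place of 4, and 5.61% of all genes. The block moved no other count of called members by over 1.5 times. With it 8 were called at 5 months (16.3% of all genes) and 3 for the difference (1.71%). Over time it gave 25 in WT (47.9% of all genes) and 19 under the KO label (41.6%). Of 394 values of single genes under alternatives, 333 kept their direction and side of the threshold, 56 lost a call, 3 gained one and 2 reversed. With at least 10 counts in every library Cfd gave no value between genotypes. Depth limits Cfd under the KO label to the bounds given.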
